A study of Mus musculus with 12 samples.

Results

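The heat shock and DnaJ chaperone genes were picked out by symbol, with no measured value in the rule. The family itself was chosen with earlier results of these data known. Symbols that join Dnaja, Dnajb or Dnajc to a number, or Hspa, Hspb, Hspd, Hspe or Hsph to a number and an optional letter, were taken, together with Hsp90aa1, Hsp90ab1 and Hsp90b1. The rule found 70 of the 52636 genes in the deposited tables of TPM, a measure of transcript abundance. They are 43 DnaJ genes (4 DNAJA, 13 DNAJB and 26 DNAJC) and 27 HSP genes (11 HSP70, 3 HSP110, 3 HSP90, 8 small HSP and 2 chaperonin genes). RNA came from the hippocampus of 12 mice in 4 groups of 3, namely males with low extinction, males with high extinction, females with low extinction and females with high extinction. All mice were wild-type C57BL6/J animals of 18 weeks, and each library came from a separate mouse. Fear extinction is the waning of a learned fear response when its trigger is met repeatedly without harm. The sources used here do not give how the extinction level was scored or how long before dissection a mouse was last tested.

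Chaperones keep proteins from misfolding. HSP70 proteins grip unfolded stretches in a cycle of ATP binding and hydrolysis, DnaJ proteins deliver clients and trigger hydrolysis, HSP110 proteins exchange the nucleotide, and HSP90 proteins act later on kinases and receptors. Under heat or other protein damage the transcription factor HSF1 binds heat shock elements and raises a subset of these genes, while others are made constantly or belong to the endoplasmic reticulum or the mitochondria. In neurons, some DnaJ proteins work at the synapse, where they help synaptic vesicle proteins to fold and strip clathrin from vesicles.

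Levels are in TPM, a unit corrected for transcript length in which every library sums to the same total. Each sex has its own table, normalized separately, so changes were taken within a sex. All changes are low minus high extinction on a log2 scale, and negative values mean lower at low extinction. The authors' fold changes are those of their DESeq2 tables, turned to that direction. Depth per library is unknown, and mean normalized counts summed to 42.6 M in the authors' deposited table of males and 43.4 M in that of females. From 18170 to 19062 genes reached 1 TPM in each library. The share of TPM in genes derived from ribosomal RNA was lowest, at 8.44%, in a low-extinction female (replicate 3) and highest, at 24.8%, in a high-extinction male (replicate 1). The hippocampal neuron markers Prox1 (39.0 to 50.6 TPM), Wfs1 (48.9 to 74.5 TPM) and Neurod6 (153 to 184 TPM) were present in every library. In whole tissue, fewer cells of a type and less RNA per cell cannot be told apart.

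The results turn on 3 heat-inducible genes, Dnajb1, Hspa1a and Hspa1b, and their promoters are printed because heat induction acts there. The sequences are from RefSeq on build GRCm38.p6, hold the 250 bases before RefSeq's start of the gene and read 5′ to 3′ along the gene's strand. They lie at chr8:83607925-83608174 on the plus strand for Dnajb1, at chr17:34972157-34972406 on the minus strand for Hspa1a and at chr17:34959239-34959488 on the minus strand for Hspa1b. Capitals mark the heat shock element pair GAANNTTC and the CCAAT box, which reads ATTGG on this strand.
Dnajb1: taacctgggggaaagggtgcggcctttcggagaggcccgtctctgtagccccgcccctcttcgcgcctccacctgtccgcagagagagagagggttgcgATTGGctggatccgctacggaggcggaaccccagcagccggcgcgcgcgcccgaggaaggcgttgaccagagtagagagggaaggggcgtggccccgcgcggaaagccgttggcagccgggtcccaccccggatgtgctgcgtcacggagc
Hspa1a: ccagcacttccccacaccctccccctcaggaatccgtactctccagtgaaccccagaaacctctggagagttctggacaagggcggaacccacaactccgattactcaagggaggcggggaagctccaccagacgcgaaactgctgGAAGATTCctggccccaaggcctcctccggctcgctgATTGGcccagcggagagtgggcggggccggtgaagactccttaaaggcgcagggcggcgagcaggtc
Hspa1b: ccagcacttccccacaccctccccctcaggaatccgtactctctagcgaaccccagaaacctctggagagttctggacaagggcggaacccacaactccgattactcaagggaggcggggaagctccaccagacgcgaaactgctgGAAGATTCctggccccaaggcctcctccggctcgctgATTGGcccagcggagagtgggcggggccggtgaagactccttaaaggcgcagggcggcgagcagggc
The Hspa1a and Hspa1b promoters differed at 3 of 250 bases, so they were 98.8% identical. Both hold GAANNTTC from 104 to 97 bases before the start and the CCAAT box from 67 to 63 bases before it. Dnajb1 holds a CCAAT box from 151 to 147 bases before its start, and GAANNTTC is not in its window.

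RefSeq gave a window from 250 bases before to 50 bases after the start for 57 of the 70 chaperone genes, some with several starts, and 6 motifs were searched on both strands. GAANNTTC, a head-to-head pair of heat shock units that reads alike on both strands, was in 13 of the 57 and in 7 of the 10 heat-inducible members with a window, beside 9.04% of all 27025 genes with a window. The tail-to-tail pair TTCNNGAA, which also reads alike on both strands, was in 6 of the 57, beside 9.60% of genes. The triple, GAANNTTC followed directly by NNGAA and so containing both pairs, was in Dnajb6, Hspd1, Hspe1 and Hsph1, beside 0.662% of genes. CCAAT was in 24 of the 57, beside 41.1% of genes. The cyclic AMP response element TGACGTCA was in 1 of the 57, Dnajc27, beside 2.03% of genes. The endoplasmic reticulum stress element, CCAAT followed by N at 9 positions and then CCACG, was in Dnajc3, Hsp90b1 and Hspa5, all 3 of them endoplasmic reticulum members, beside 0.137% of genes. These matches are descriptions of the letters and not sites shown to be bound.

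The chaperone genes together took 4224 to 4849 TPM of a library, from 0.422% to 0.485% of the total. Hsp90ab1, the constitutive cytosolic HSP90, had the highest level, with a mean of 1002 TPM in males and 1028 TPM in females. Hspa8, the constitutive HSP70 of the cytosol, averaged 315 TPM in males and 339 TPM in females, and the stress-inducible Hsp90aa1 averaged 305 and 295 TPM. Hsph1, an HSP110 nucleotide exchange factor, averaged 182 TPM in males and 186 TPM in females. The inducible genes Hspa1a and Hspa1b lay far below Hspa8, at 14.9 and 18.1 TPM in males and 15.3 and 17.5 TPM in females.

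Among DnaJ genes the highest level was that of Dnajc6, auxilin, which strips clathrin from vesicles (147 TPM in males and 157 TPM in females). Dnajc7, which binds both HSP70 and HSP90, averaged 133 and 144 TPM, and Dnajb5, a cytosolic partner of HSP70, averaged 114 and 122 TPM. Dnaja2, a cytosolic partner of HSP70, averaged 112 and 120 TPM. The small HSP genes were low, led by Hspb8, a partner of the co-chaperone Bag3, at 15.3 and 15.9 TPM. Hspd1 and Hspe1, which form the mitochondrial chaperonin, averaged 63.1 and 40.03 TPM in males and 70.2 and 39.9 TPM in females.

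**Figure D1:**
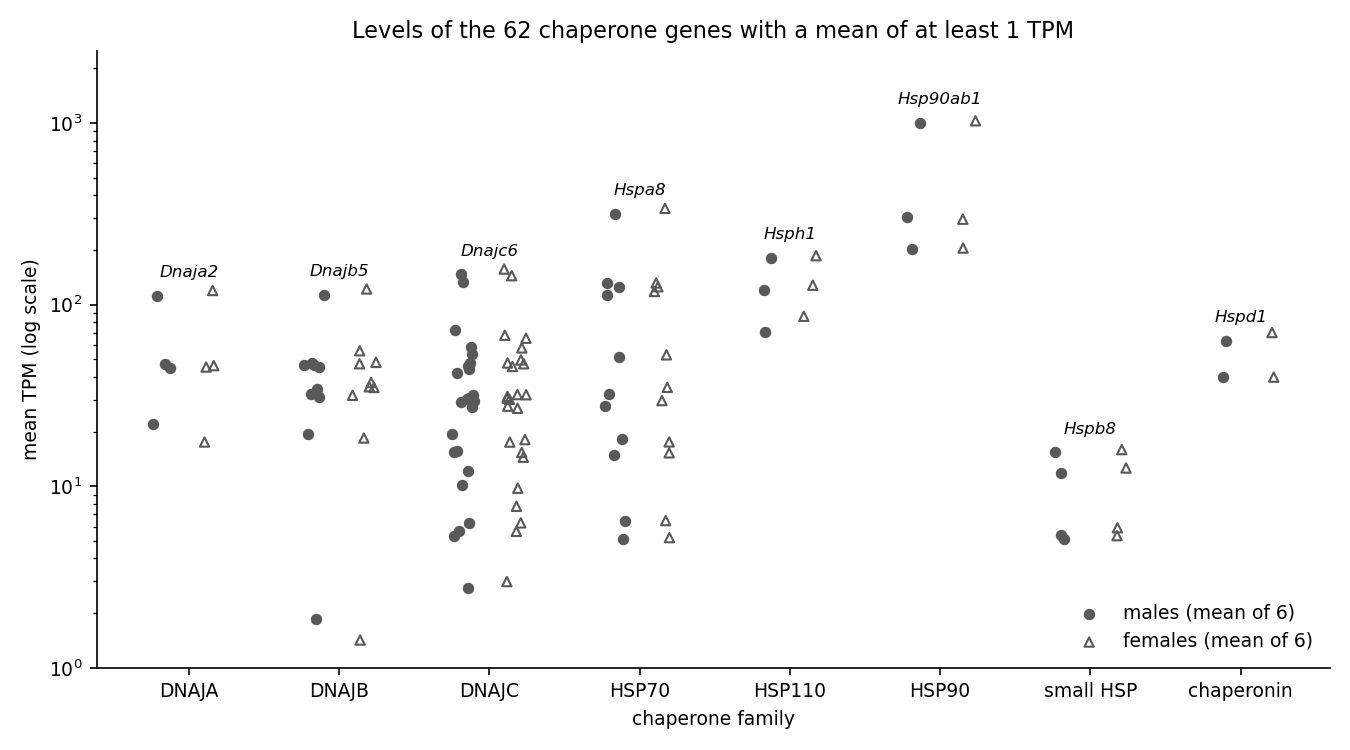
Mean TPM (log scale, y axis) of each of the 62 chaperone genes whose mean reached 1 TPM, by family (x axis). Filled circles are means of 6 male libraries and open triangles means of 6 female libraries, from tables normalized separately, and the gene with the highest level in each family is named, with Hsp90ab1 above 1000 TPM and Hspb8 the highest small HSP at about 15.3 TPM in males.

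In each sex 62 of the 70 genes reached a mean of 1 TPM. The other 8 stayed below it in both sexes, with means from 0.0364 TPM (Dnajc22, in females) to 0.904 TPM (Hspb2, in males). They are Dnajb7, Dnajb8, Dnajb13, Dnajc22, Hspb2, Hspb3, Hspb7 and Hspb9. They are given no fold change here, except Dnajb13 in the closing section.

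Dnajb1 was lower at low extinction in both sexes, and it was the sole chaperone gene called in each of the authors' deposited tables. Hspa1a and Hspa1b had negative changes of similar or larger size with wider errors. The other 59 chaperone genes above the filter had averaged changes that did not pass the threshold in either direction.

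Dnajb1 (ENSMUSG00000005483.10) encodes an HSP40 that partners inducible HSP70. The gene is protein-coding and lies on chromosome 8 of GRCm38, plus strand, from position 83608193 to 83612653, where no other annotated gene overlaps it. Dnajb1 had 27.9, 26.02 and 26.4 TPM in low-extinction males, against 31.6, 40.9 and 34.1 TPM in high-extinction males. In low-extinction females it had 33.9, 31.0 and 33.8 TPM, against 39.0, 38.4 and 35.5 TPM in high-extinction females. In each sex all 3 low-extinction libraries lay below all 3 high-extinction libraries.

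The group means of Dnajb1 were 26.8 ± 1.03 TPM in low-extinction males and 35.5 ± 4.80 TPM in high-extinction males (SD, n = 3 each). Low-extinction females averaged 32.9 ± 1.64 TPM and high-extinction females 37.6 ± 1.88 TPM (SD, n = 3 each). By the authors' deposited table of males, Dnajb1 was 1.31-fold lower (log2 change -0.39, SE 0.09, DESeq2 adjusted p = 0.0118). By the authors' deposited table of females, it was 1.22-fold lower (log2 change -0.28, SE 0.07, DESeq2 adjusted p = 0.0104). The share of genes called lower was 0.389% in males and 0.288% in females, beside 1 of the 64 and 1 of the 61 chaperone genes with an adjusted p. Toward higher levels at low extinction, 0 chaperone genes were called in either of the authors' deposited tables, where 0.115% of genes in males and 0.569% in females were. At an adjusted p below 0.1 the authors' deposited tables called 1 chaperone gene in males, where 0.863% of genes were called in both directions, and 2 in females, Dnajb1 and Hspa1a, where 1.28% were.

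On log2(TPM + 1) the Dnajb1 change averaged over the sexes was -0.29. A two-sided exact permutation within sex gave p = 0.005, the smallest that the 400 assignments allow. Taken alone, males gave -0.39 and females -0.19, and the two-sided exact permutation p was 0.1 in both cases, the smallest possible with 3 libraries against 3. Dnajb1 was singled out with the authors' result on the same libraries known, so these values are not independent of that result. In limma's test across all genes the average did not pass (limma adjusted p = 0.349).

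Hspa1a (ENSMUSG00000091971.3) and Hspa1b (ENSMUSG00000090877.3) encode the inducible HSP70 of the cytosol. Both are protein-coding genes on the minus strand of chromosome 17 in GRCm38, at positions 34969190 to 34972156 for Hspa1a and 34956436 to 34959238 for Hspa1b. Gm20481 overlaps Hspa1a on the other strand, and the sources used here do not say if counting used strand. Of the 50-base windows in their transcripts, 60.4% of those of Hspa1a and 62.3% of those of Hspa1b also occur in transcripts of another gene, mainly of each other. Reads could therefore be split between them, and their separate values are uncertain.

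Hspa1a had 11.7, 12.2 and 11.4 TPM in low-extinction males, against 14.2, 24.2 and 15.6 TPM in high-extinction males. In low-extinction females it had 16.2, 10.5 and 12.7 TPM, against 18.5, 16.3 and 17.4 TPM in high-extinction females. The low and high libraries of Hspa1a did not overlap in either sex, although replicate 1 of the low-extinction females lay close to the lowest high-extinction library. Hspa1b had 14.7, 16.1 and 13.7 TPM in low-extinction males, against 16.1, 27.6 and 20.6 TPM in high-extinction males. In low-extinction females Hspa1b had 19.6, 12.01 and 15.02 TPM, against 20.1, 18.8 and 19.7 TPM in high-extinction females. Its groups overlapped in both sexes by 1 low-extinction library, and replicate 2 of the high-extinction males was the highest male library for all 3 genes.

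By the authors' deposited tables, Hspa1a had a log2 change of -0.63 in males (SE 0.22, DESeq2 adjusted p = 0.232) and of -0.55 in females (SE 0.16, DESeq2 adjusted p = 0.0613), or levels 1.55-fold and 1.46-fold lower. For Hspa1b the authors' deposited tables gave log2 changes of -0.42 in males (SE 0.16, DESeq2 adjusted p = 0.342) and -0.38 in females (SE 0.15, DESeq2 adjusted p = 0.286), or levels 1.34-fold and 1.299-fold lower. None of these 4 values passed the threshold within a sex. On log2(TPM + 1) the male change of Hspa1a was -0.54, and -0.32 without replicate 2 of the high-extinction males, while its female change was -0.40, and -0.26 when replicate 2 of the low-extinction females was left out. For Hspa1b the male change was -0.47, and -0.28 without replicate 2 of the high-extinction males. Its female change was -0.34, and leaving out a low-extinction female gave -0.51 (replicate 1) or -0.18 (replicate 2).

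Averaging the authors' deposited fold changes over the sexes by inverse variance, with a normal test and Benjamini-Hochberg adjustment over 18043 genes, called 3 of the 62 chaperone genes, all lower. The share of all genes called lower in that average was 0.471% and the share called higher 0.604%. From the authors' deposited tables, Dnajb1 averaged -0.32 (SE 0.05, normal test adjusted p = 8.66e-06) and was 1.25-fold lower. Hspa1a averaged -0.58 from the authors' deposited tables (SE 0.13, normal test adjusted p = 0.00205) and was 1.49-fold lower. Hspa1b averaged -0.40 from the authors' deposited tables (SE 0.11, normal test adjusted p = 0.0301) and was 1.32-fold lower. With no filter on low genes the adjusted p of Hspa1b was 0.0528, and 2 of the 70 chaperone genes, Dnajb1 and Hspa1a, were called.

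**Figure D2:**
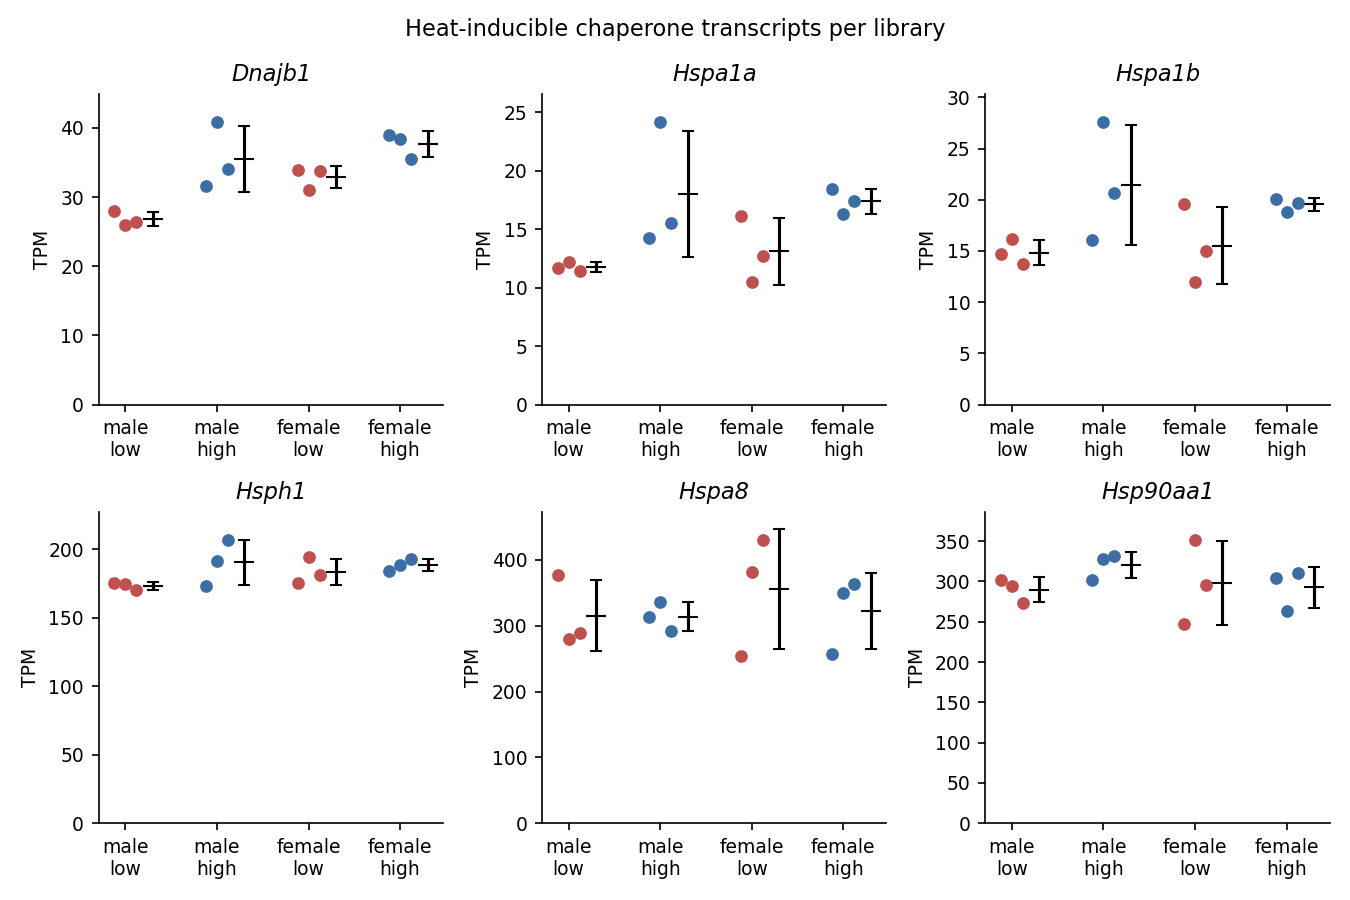
TPM (y axis, from 0) of 6 chaperone genes listed as heat-inducible in each of the 12 libraries (x axis, low left of high within each sex). Hspa8, one of them, is also made constantly. Points are libraries and bars the mean ± SD of 3. Dnajb1 and Hspa1a have all 3 low-extinction libraries below all 3 high-extinction libraries in both sexes, while Hsph1, Hspa8 and Hsp90aa1 overlap in at least 1 sex.

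The 13 heat-inducible members include 10 further genes listed as targets of HSF1, among them Hspa8 and Hsp90ab1, which are also made constantly. In the authors' deposited table of males 11 of the 13 were below 0, with a median change of -0.10, and 10 of the 13 were below 0 in females, with a median of -0.07. The medians over all genes in the authors' deposited tables were -0.01 in each sex, and 51.6% and 55.2% of all genes were below 0. The counts and medians of the 13 include Dnajb1, Hspa1a and Hspa1b. Apart from Dnajb1, Hspa1a and Hspa1b, none of the 13 passed the threshold in either table or in the average. Hsph1 had 175, 174 and 170 TPM in low-extinction males, against 173, 191 and 206 TPM in high-extinction males. In low-extinction females it had 175, 194 and 181 TPM, against 184, 188 and 193 TPM in high-extinction females. Its groups overlapped in both sexes, and in the authors' deposited tables its change was -0.10 (SE 0.07) in males and -0.09 (SE 0.06) in females.

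Hspa8, made constantly but also listed as an HSF1 target, spread widely between libraries, with 254, 382 and 430 TPM in low-extinction females, against 257, 349 and 363 TPM in high-extinction females. In males it had 377, 280 and 289 TPM at low and 313, 336 and 293 TPM at high extinction. The groups overlapped in both sexes. Its change in the authors' deposited tables was -0.06 (SE 0.07) in males and -0.10 (SE 0.05, DESeq2 adjusted p = 0.451) in females. The HSP90 genes had values near 0 in the authors' deposited tables, with Hsp90ab1 at -0.03 (SE 0.06) and Hsp90aa1 at 0.01 (SE 0.07) in males. In females Hsp90ab1 was at -0.07 (SE 0.05) and Hsp90aa1 at -0.00046 (SE 0.07) in the authors' deposited table, and neither passed. Hsp90ab1 had 976, 1015 and 972 TPM in low-extinction males, against 952, 1027 and 1069 TPM in high-extinction males. In low-extinction females it had 1000.4, 1035 and 1066 TPM, against 1008, 1013 and 1048 TPM in high-extinction females, so the groups overlapped in both sexes. Hsp90b1, the HSP90 of the endoplasmic reticulum, was at 0.02 (SE 0.08) in males and at -0.05 (SE 0.08) in females by the authors' deposited tables.

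Over all chaperone genes with an adjusted p, the authors' deposited tables put 43 of 64 below 0 in males and 46 of 61 below 0 in females. Over all genes the shares below 0 were 51.6% and 55.2%. Among genes between the lower and upper quartile of the chaperone genes' mean normalized counts, 56.7% were below 0 in males and 60.9% in females. The median change of the chaperone genes in the authors' deposited tables was -0.05 in each sex, and 57 of the 64 in males and 54 of the 61 in females lay within 0.2 of 0. Changes with an unadjusted DESeq2 p below 0.05 and lower at low extinction numbered 5 of 64 in the authors' deposited table of males, where 4.98% of all genes had one. These were Dnajb1, Dnajc3, Dnajb13, Hspa1a and Hspa1b. The authors' deposited table of females held 8 of 61, beside 5.84% of all genes, namely Dnajb1, Dnajb2, Dnajb5, Dnajc28, Hspa2, Hspa8, Hspa1a and Hspa1b. In the direction of higher levels at low extinction there were 0 chaperone genes in each of the authors' deposited tables, beside 2.63% and 4.11% of all genes.

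Taking both sexes together, 3 of the 62 chaperone genes were lower with an unadjusted DESeq2 p below 0.05 in both of the authors' deposited tables, where 0.377% of all genes were. They were again Dnajb1, Hspa1a and Hspa1b, and 0 chaperone genes were higher in both, beside 0.543% of all genes. Without a threshold, 29 of the 62 were below 0 in both of the authors' deposited tables and 3 were above 0 in both, beside 30.3% and 24% of all genes. Among the remaining genes, those with the smallest unadjusted p toward higher levels in the authors' deposited table of males were Dnajc17 at 0.27 (SE 0.22), Dnajc9, a histone chaperone, at 0.13 (SE 0.11) and Dnajb6, which restrains protein aggregation, at 0.12 (SE 0.10). For females the authors' deposited table gave Dnajc10, a reductase of the endoplasmic reticulum, at 0.10 (SE 0.06), Dnajc2, which sits at the ribosome, at 0.12 (SE 0.10) and Dnajc19, part of the mitochondrial import motor, at 0.14 (SE 0.12). None of the 6 passed.

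**Figure D3:**
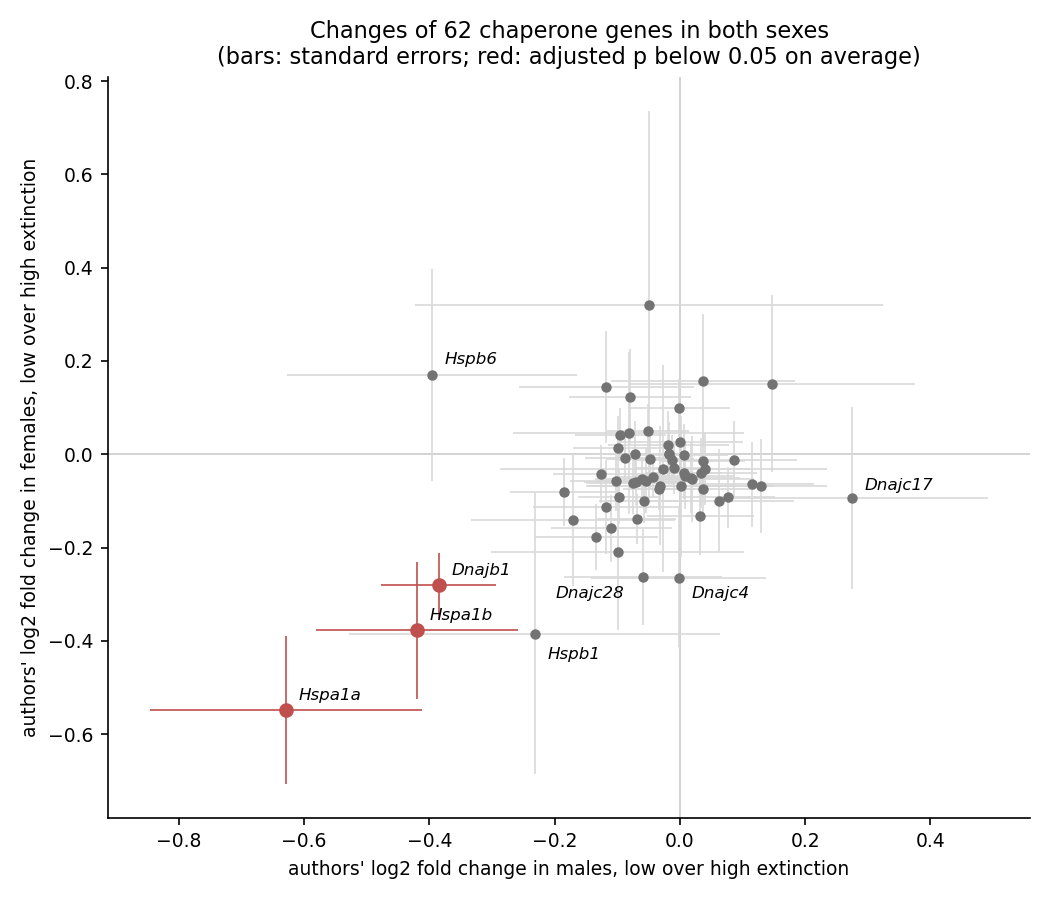
The authors' log2 fold change of low over high extinction in males (x axis) and in females (y axis) for the 62 chaperone genes, with standard errors as bars. Dnajb1, Hspa1a and Hspa1b, in red, pass on average at an adjusted p below 0.05 and lie in the lower left, and 58 of the 62 averages lie within 0.2 of 0.

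The change of a chaperone gene did not pass a test of difference between the sexes in any case. From the authors' deposited tables, 0 of 62 male minus female differences passed the normal test with Benjamini-Hochberg adjustment, and 0 had an unadjusted p below 0.05, while 0.333% of all genes passed. For Dnajb1 the male minus female difference from the authors' deposited tables was -0.10, with a 95% interval from -0.33 to 0.12. For Hspa1a it was -0.08, with an interval from -0.61 to 0.45. Across the 62 genes the male and female changes in the authors' deposited tables had a Pearson correlation of 0.466, and of 0.0555 without Dnajb1, Hspa1a and Hspa1b. The tables share no mouse, and genes are not independent replicates.

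Among DNAJA genes, Dnaja2, Dnaja4 and Dnaja3, the last a mitochondrial partner of HSP70, had changes of 0.04, 0.03 and -0.10 in males (SE 0.07 to 0.09) and -0.01, -0.04 and -0.06 in females (SE 0.06 to 0.08) in the authors' deposited tables. Dnajb5 had 113, 103 and 114 TPM in low-extinction males, against 105, 129 and 118 TPM in high-extinction males. In females it had 114, 121 and 127 TPM at low and 127, 129 and 115 TPM at high extinction, so its groups overlapped in both sexes. Its changes in the authors' deposited tables were -0.07 (SE 0.06) in males and -0.14 (SE 0.05, DESeq2 adjusted p = 0.286) in females. Dnajb2, a neuronal DnaJ protein that binds ubiquitin, was at -0.13 (SE 0.10) in males and -0.18 (SE 0.07, DESeq2 adjusted p = 0.294) in females by the authors' deposited tables, and did not pass. Dnajb14, a DnaJ protein of the endoplasmic reticulum membrane, had 45.1, 45.6 and 43.04 TPM in low-extinction males, against 47.9, 46.3 and 51.2 TPM in high-extinction males, without overlap. In females its libraries ran from 47.2 to 52.0 TPM at low and from 44.1 to 49.97 TPM at high extinction, with overlap. The authors' deposited tables gave Dnajb14 changes of -0.09 (SE 0.06) in males and -0.01 (SE 0.05) in females.

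Dnajc5, Dnajc6 and Dnajc13 serve synaptic vesicles and endosomes. Dnajc5, the cysteine string protein that protects vesicle proteins, differed 1.102-fold between its highest and lowest male library and 1.13-fold between its highest and lowest female library. Its changes in the authors' deposited tables were -0.04 (SE 0.06) in males and -0.05 (SE 0.04) in females. Dnajc6 had changes of -0.06 (SE 0.07) and -0.05 (SE 0.05), and Dnajc13, which works at endosomes, had -0.10 (SE 0.07) and 0.04 (SE 0.06) in males and females in the authors' deposited tables. None of the 3 passed. Dnajc7 was at -0.02 (SE 0.06) and 0.0015 (SE 0.05), and Dnajc8, a nuclear protein tied to splicing factors, at -0.02 (SE 0.08) and 0.0010 (SE 0.07), in males and females in the authors' deposited tables.

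Of the 13 endoplasmic reticulum members above the filter and the 10 mitochondrial members, 0 passed in either of the authors' deposited tables. The endoplasmic reticulum members had medians of -0.01 in males and -0.05 in females, and the mitochondrial members -0.03 and -0.06, in the authors' deposited tables. Hspa5, the HSP70 of the endoplasmic reticulum also called BiP, had 100, 140 and 99.4 TPM in low-extinction males, against 126, 149 and 171 TPM in high-extinction males. In females it had 120, 89.8 and 129 TPM at low and 145, 88.6 and 181 TPM at high extinction. The groups overlapped in both sexes, and the changes in the authors' deposited tables were -0.10 (SE 0.20) in males and -0.21 (SE 0.17) in females. Dnajc3, an inhibitor of the stress kinase PERK that resides in the endoplasmic reticulum, was at -0.18 (SE 0.09, DESeq2 adjusted p = 0.565) in males and -0.08 (SE 0.07) in females in the authors' deposited tables. Hspa9, the mitochondrial HSP70, was at -0.01 (SE 0.06) and -0.03 (SE 0.06), and Hspd1 at -0.10 (SE 0.07) and 0.01 (SE 0.07), in males and females in the authors' deposited tables. Hspe1, the partner of Hspd1, was at 0.02 (SE 0.10) in males and -0.05 (SE 0.09) in females in the authors' deposited tables.

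Several small HSP genes had wide errors. Hspb1, the heat-inducible HSP25 of mice, was at -0.23 (SE 0.30) in males and -0.38 (SE 0.30) in females in the authors' deposited tables. Hspb6 was at -0.40 (SE 0.23) in males and 0.17 (SE 0.23) in females, and Hspb8 at -0.03 (SE 0.12) and -0.07 (SE 0.13), by the authors' deposited tables. Hspb11, which takes part in transport within cilia, was at 0.15 in both sexes (SE 0.23 in males and 0.19 in females) in the authors' deposited tables. None passed.

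Regulators and partners of the chaperones outside the rule were read from lists. Of 6 heat shock factor genes, 4 reached 1 TPM and 0 passed in either of the authors' deposited tables. Hsf1, the main heat shock factor, was at 0.06 (SE 0.09) in males and 0.01 (SE 0.08) in females in the authors' deposited tables. Of 26 co-chaperones of HSP70 and HSP90, 0 passed in either of the authors' deposited tables. The average over the sexes called Bag3 alone, lower, beside 0.471% of all genes called lower. Bag3, a heat-inducible co-chaperone that steers clients to autophagy, had 6.84, 7.72 and 7.28 TPM in low-extinction males, against 9.21, 10.5 and 7.69 TPM in high-extinction males. In females it had 8.59, 8.07 and 8.81 TPM at low and 9.16, 10.5 and 10.3 TPM at high extinction. The groups overlapped slightly in males and not in females, and the average from the authors' deposited tables was -0.32 (SE 0.09, normal test adjusted p = 0.0414).

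Of 10 other heat shock response genes, the authors' deposited table of males called Serpinh1, a collagen chaperone, 1.65-fold lower (DESeq2 adjusted p = 0.000867). That is 1 of 10, beside 0.389% of all genes called lower, and the table of females called 0. At an unadjusted DESeq2 p below 0.05, 2 of the 10 were higher and 1 lower in males, beside 2.63% and 4.98% of all genes. In females 0 were higher and 2 lower, beside 4.11% and 5.84%. Cryab, a small heat shock protein outside the symbol rule, was at -0.13 (SE 0.24) in males and -0.24 (SE 0.07, DESeq2 adjusted p = 0.0915) in females in the authors' deposited tables. Of the unfolded protein response genes, the authors' deposited table of males called Herpud1, which acts in the disposal of misfolded proteins, 1.23-fold lower (DESeq2 adjusted p = 0.0362). The authors' deposited table of females called Xbp1, a transcription factor of that response, 1.22-fold lower (DESeq2 adjusted p = 0.0426) and Sdf2l1, a partner of BiP, 1.59-fold lower (DESeq2 adjusted p = 0.0452). That is 1 of 20 and 2 of 21 above the filter, beside 0.389% and 0.288% of all genes. In either sex 0 of the list were called higher. Of the 14 TRiC and prefoldin genes, the 10 mitochondrial proteostasis genes and the 5 further DnaJ-related genes above the filter, 0 passed in either of the authors' deposited tables.

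On log2(TPM + 1), limma called 0 of the 62 chaperone genes in either sex, in the mean of both sexes and in the male minus female difference. Over all genes it called 0 in males, 2 in females (0.0107%), 0 in the mean of both sexes and 1 for the difference (0.00541%), and at an unadjusted p below 0.05 it had 1151, 1648, 1424 and 1466 genes. Among the chaperone genes, 7 were lower and 1 higher at an unadjusted limma p below 0.05 in males, where 3.93% of all genes were lower and 2.36% higher. In females 2 were lower and 3 higher, where 0.954% of all genes were lower and 7.87% higher.

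Counting genes whose low and high libraries did not overlap in TPM, 7 of the 62 chaperone genes were lower in males, namely Dnajb1, Dnajb14, Dnajc3, Dnajc14, Hspa1a, Hspa1l and Hspb6, beside 7.28% of all genes. The 1 that was higher in males was Hspe1, beside 4.2% of all genes. In females 3 were lower, namely Dnajb1, Dnajc4 and Hspa1a, beside 1.98% of all genes, and 5 were higher, namely Dnajb6, Dnajc1, Dnajc7, Dnajc10 and Hspa4l, beside 14.3%. Of these 62 genes, Dnajb1 and Hspa1a alone did not overlap in both sexes, and both were lower. The share of all genes without overlap in both sexes was not counted. After median-of-ratios scaling, 11 were lower and 1 higher in males, beside 6.63% and 6.14% of all genes, and 9 were lower and 1 higher in females, beside 8.28% and 6.44%. Without genes derived from ribosomal RNA, 13 of 64 were lower and 1 higher in males, beside 9.17% and 4.52% of all genes, and 4 were lower and 3 higher in females, beside 4.81% and 8.86%.

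The direction of the chaperone genes as a group in female TPM depended on the scaling. In females 20 of 62 were lower on TPM as deposited, where 30.9% of all genes were lower, and 43 of 62 after median-of-ratios scaling, where 53.3% of all genes were. The median change of the chaperone genes in females was 0.03 on TPM as deposited and -0.06 after that scaling, beside 0.06 and -0.01 over all genes. In males 47 of 62 were lower on TPM as deposited, where 56.9% of all genes were lower, and 42 of 62 after the scaling, where 51.02% were. The share of TPM taken by genes derived from ribosomal RNA ran from 15.3% to 18.2% in low-extinction males and from 12.2% to 24.8% in high-extinction males. In females it ran from 8.44% to 13.5% at low and from 12.4% to 15.3% at high extinction. Without those genes, 49 of 64 chaperone genes were lower in males and 36 of 62 in females, beside 59.4% and 42.6% of all genes. Dnajb1, Hspa1a and Hspa1b were lower in both sexes under every scaling tried.

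**Figure D4:**
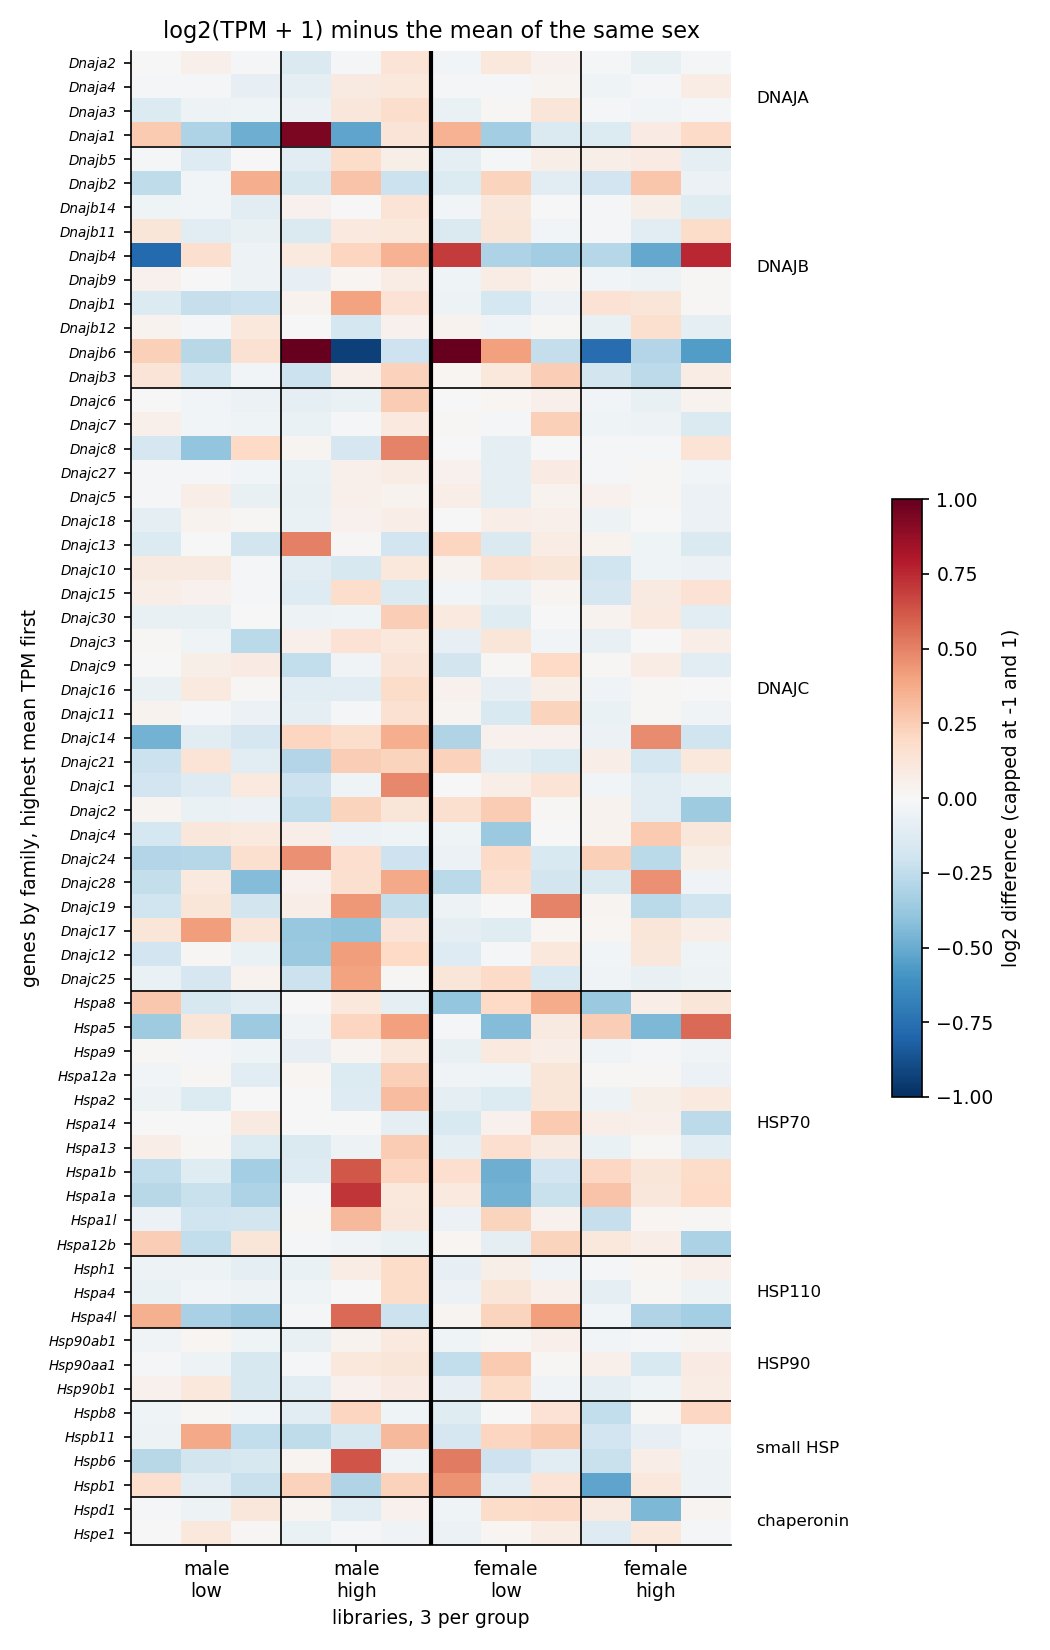
Difference of log2(TPM + 1) from the mean of the same sex (colour, capped at -1 and 1) for the 62 chaperone genes (rows, by family) in the 12 libraries (columns, low left of high within each sex). Dnajb1, Hspa1a and Hspa1b are blue in most low-extinction libraries, and Dnajb6 varies most from library to library, differing 4.21-fold among males and 4.96-fold among females.

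Library-to-library spread differed widely among the chaperone genes. Dnajb9, which acts in the endoplasmic reticulum, differed 1.12-fold between its highest and lowest male library and 1.09-fold among females, and Hsp90ab1 1.12-fold and 1.07-fold. Dnaja1, a cytosolic partner of HSP70, differed 2.91-fold among males and 1.66-fold among females, and Dnajb4 2.23-fold and 2.47-fold. Dnaja1 had 24.8, 16.4 and 14.3 TPM in low-extinction males, against 40.5, 13.9 and 22.5 TPM in high-extinction males, and the groups overlapped.

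Some chaperone genes had different values in the TPM and in the authors' count-based tables. For Dnajb6 the female change was 1.07 (SE 0.39) on log2(TPM + 1), where TPM were 44.1, 21.3 and 13.2 at low and 8.89, 12.7 and 10.4 at high extinction, and -0.06 (SE 0.09) in the authors' deposited table. Hspa4l, of the HSP110 family, had 86.4, 99.4 and 113 TPM in low-extinction females, against 83.2, 68.8 and 66.8 TPM in high-extinction females, without overlap. Its female change was 0.44 (SE 0.12) on log2(TPM + 1) and 0.05 (SE 0.06) in the authors' deposited table. Dnajc14 had 20.5, 26.5 and 25.6 TPM in low-extinction males, against 33.5, 32.6 and 37.3 TPM in high-extinction males, also without overlap. Its male change was -0.50 on log2(TPM + 1) and -0.07 in the authors' deposited table. Of the 50-base windows in the transcripts of Dnajb6, 17.7% also occur in transcripts of other genes, beside 0.36% for Hspa4l and 0.79% for Dnajc14. Hspb1 in females was at -0.38 in the authors' deposited table, beside 0.32 on log2(TPM + 1), and 48.8% of its windows are shared with other transcripts, foremost the pseudogene Hsp25-ps1. The sign was the same in 49 of 62 genes in males and 30 of 62 in females between log2(TPM + 1) and the authors' deposited tables, and 44 and 45 of 62 lay within 0.1 of each other. Genes apart by more than 0.3 were Dnajb4, Dnajc14, Dnajc24 and Dnajc28 in males and Dnajb6, Hspa4l and Hspb1 in females. Dnajb4, Dnajc24 and Dnajc28 shared 0 windows with other genes. The part of shared sequence in these gaps was not tested. Of the 70 chaperone genes, 10 shared over 10% of their windows, among them Hspa8 (38.6%), Hspd1 (39.7%) and Hsp90aa1 (47.5%), so their levels are uncertain, and 36 shared none. Dnajb1 shared 0.38%.

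**Figure D5:**
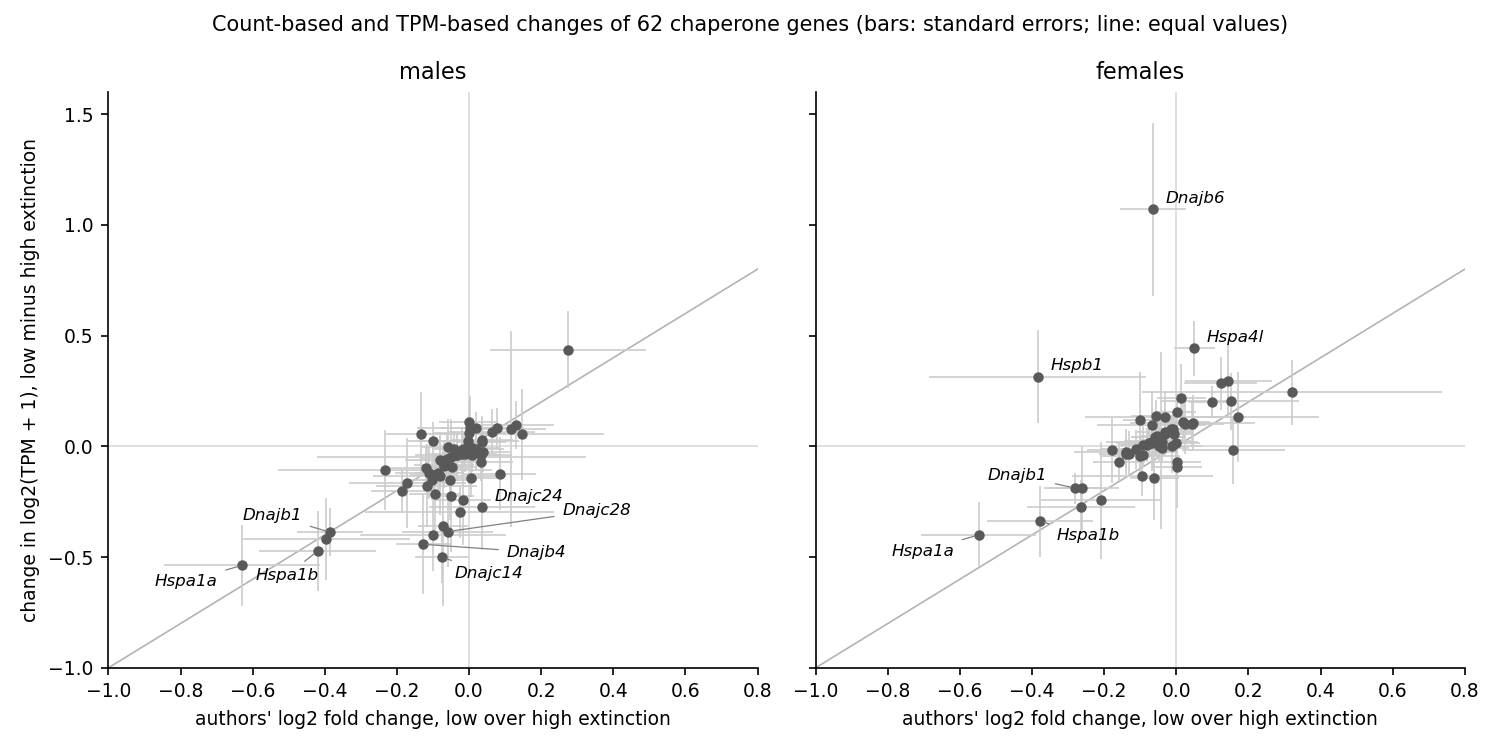
Change of log2(TPM + 1) (y axis, low minus high extinction) against the authors' log2 fold change (x axis, low over high) for the 62 chaperone genes, in males (left) and females (right). Bars are standard errors and the line marks equal values, and Dnajb1, Hspa1a and Hspa1b lie near the line in both panels while Dnajb6 in females lies far above it.

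Genes outside the chaperone families were read in the same libraries. The summed TPM of 19 immediate early genes, which neuronal activity induces within minutes, ran from 509 to 538 in low-extinction males and from 595 to 806 in high-extinction males. In females it ran from 804 to 925 at low and from 899 to 1055 at high extinction, so the groups overlapped in females and not in males. The authors' deposited tables called 2 of the 19 lower in males, Egr2 and Junb, and 9 of the 19 lower in females, with 0 higher. Of all genes, 0.389% were called lower in males and 0.288% in females. Without a threshold, 19 of the 19 immediate early genes were below 0 in males (median -0.27) and 18 of the 19 in females (median -0.32). The shares of all genes below 0 were 51.6% and 55.2%. The average of the authors' deposited fold changes over the sexes called 12 of these immediate early genes lower and 0 higher. Of all genes, that average called 0.471% lower and 0.604% higher. The part of the immediate early genes in the chaperone values was not tested.

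Markers of other cell types were read too. All 10 choroid plexus markers were below 0 in both of the authors' deposited tables, with 0 called, and their summed TPM ran from 60.0 to 984 in low-extinction males and from 339 to 3507 in high-extinction males. In females they ran from 107 to 1097 at low and from 26.3 to 1283 at high extinction. Of 10 ependymal markers, the authors' deposited table of males called 4 lower (Tekt1, Foxj1, Dynlrb2 and Ccdc153), beside 0.389% of all genes. The table of females called 0 of them. Their summed TPM ran from 23.2 to 49.3 in low-extinction males and from 65.7 to 79.0 in high-extinction males, and no marker was at 0 in all libraries. The 10 meningeal markers had 6 called higher in the authors' deposited table of females, beside 0.569% of all genes. Their summed TPM ran from 927 to 1500 in low-extinction and from 598 to 878 in high-extinction females. In males they ran from 327 to 569 at low and from 690 to 1000.1 at high extinction, with 0 of the 9 above 1 TPM called in the authors' deposited table. Col3a1, under 1 TPM in males, was called 3.14-fold lower in the authors' deposited table of males and 2.38-fold higher in that of females.

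Single genes of other lists passed as well. The authors' deposited table of males called the astrocyte gene Etnppl 1.59-fold higher, and the table of females called the mural cell genes Myh11 1.90-fold and Acta2 1.79-fold higher and the thalamic marker Prkcd 1.59-fold higher. Shares of all genes called higher were 0.115% in males and 0.569% in females. Of the microglia, oligodendrocyte, blood cell and hippocampal neuron markers, 0 passed in either of the authors' deposited tables. The part of these cell types in the chaperone values was not tested.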

How the data were processed

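Libraries from 12 hippocampi were made from polyadenylated RNA, as the labels' protocols state. Tools in the submitters' processing notes are DESeq2, HTSeq, Bowtie2, TopHat2 and StringTie 1.3.3b, with builds mm10 and GRCm38.p5, not tied to particular files. The authors deposited TPM per mouse in a separate table for each sex. Per the file headers, they also deposited DESeq2 results per sex, holding a log2 fold change with its standard error, a test score, a p-value before and after adjustment, and a signal over all libraries of that sex, namely mean normalized counts. The deposited sign is not named in the files. It was opposite to the TPM change of low minus high extinction in 101 of 101 called genes of males and 133 of 134 of females, so the authors' fold changes were multiplied by -1.

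Library columns were matched to mice through the mouse names in the labels. The chaperone genes and all gene lists were chosen with earlier results of these data known. A gene was tested if it averaged 1 TPM or more. The test was limma 3.58.1 (R 4.3.3) on log2(TPM + 1), a scale that understates the change of a low gene, with Benjamini-Hochberg adjustment over all genes and a threshold of 0.05. TPM are not counts, so no count model was run, and precision is limited by 3 libraries per group. The authors' fold changes of both sexes were averaged by inverse variance and subtracted, each with a normal test, in Python 3.11.15 with scipy 1.17.1. Both steps were tested on simulated data. Named genes were Dnajb1, every chaperone gene called, the 3 per direction and sex with the smallest unadjusted p, the 3 with the highest level in each family, those not overlapping in both sexes, and genes of the other lists called in either table. A few more, such as Hsf1, Bag3, Cryab and Hspb1, were named after their values were seen. Positions and transcripts are from GENCODE M21 on GRCm38, where all 70 identifiers were found, 60 with the same version.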

Additional observations from a re-analysis of the deposited data

Results flagged for a closer look

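Dnajb13, which encodes a part of the axoneme of motile cilia, had authors' changes of opposite sign in the sexes, -1.22 (SE 0.44) in males and 0.50 (SE 0.47) in females in the authors' deposited tables. The male minus female difference was -1.717 (SE 0.65), and it drew attention because the libraries of each sex moved in opposite ways. That difference was not tested, since the mean of Dnajb13 is under 1 TPM in both sexes. It had 0.426, 0.180 and 0.368 TPM in low-extinction males, against 0.717, 1.39 and 0.630 TPM in high-extinction males. In females it had 0.779, 0.859 and 0.688 TPM at low and 0.175, 0.666 and 0.495 TPM at high extinction. The groups did not overlap in either sex, which is how Dnajb13 was picked, so the lack of overlap is not a separate result. The share of all genes that separate in opposite directions was not counted. The summed TPM of 10 ependymal markers, cells that carry motile cilia, ran from 23.2 to 49.3 in low-extinction and from 65.7 to 79.0 in high-extinction males, and from 48.8 to 83.0 in low-extinction and from 32.7 to 69.9 in high-extinction females. Their part in the Dnajb13 values was not tested.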

How the results depend on the processing

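Of 373 values recomputed under other settings, 353 kept their direction and their side of the threshold, stayed within the replicate spread or, for counts, moved little. The chaperone genes called in the average, 3 in the main setting and 2 with no filter, were scored as such a small move. Part of them could not do otherwise, so this count does not measure robustness. The permutation p of Dnajb1 within 1 sex cannot go below 0.1, and leaving out the variance trend leaves a median change as it is. The pseudocounts 0.1 and 0.5, no filter, a filter of 5 TPM, no variance trend and the joint fit of 12 libraries changed no count of calls by limma, which stayed at 0 of the chaperone genes, also without any single library. The median change of the chaperone genes in females was 0.03, and -0.055 after median-of-ratios scaling and -0.019 without genes derived from ribosomal RNA. Over all genes these medians were 0.064, -0.011 and 0.024. The male minus female median of the chaperone genes was -0.13, and -0.032 after median-of-ratios scaling, beside -0.087 and 0.0057 over all genes. It ran from -0.15 to -0.060 without single libraries, namely replicates 1 and 3 of the high-extinction males. The medians over all genes were -0.13 and -0.054 there. The chaperone median in males, -0.07, ran from -0.12 (without replicate 1 of the high-extinction males) to -0.016 (without replicate 3), with -0.030 without replicate 2 of that group. Over all genes the male median was -0.022, and -0.071, 0.010 and -0.0069 without replicates 1, 3 and 2. Chaperone genes without overlap and lower in males numbered 11 after median-of-ratios scaling and 13 without genes derived from ribosomal RNA, against 7. The shares of all genes were 6.63% and 9.17%, against 7.28%. Chaperone genes lower in females numbered 9 after median-of-ratios scaling, against 3, where the share of all genes was 8.28%, against 1.98%. Those higher in females numbered 1 after that scaling and 3 without genes derived from ribosomal RNA, against 5. The shares of all genes higher were 6.44% and 8.86%, against 14.3%. At an adjusted p below 0.1 the authors' deposited table of females called 2, Dnajb1 and Hspa1a. Without single libraries the male minus female difference on log2(TPM + 1) ran from -0.28 to 0.085 for Hspa1a and from -0.32 to 0.058 for Hspa1b, against -0.14 and -0.13. It turned positive when a high-extinction male (replicate 2) was left out, and also without a low-extinction female (replicate 1), at 0.013 for Hspa1a and 0.036 for Hspa1b. With no filter the averaged Hspa1b change of -0.40 had a normal test adjusted p of 0.0528. Without single libraries the averaged change of Dnajb1 ran from -0.33 to -0.24 (two-sided exact permutation p from 0.005 to 0.01). The cause of these changes was not tested. The authors' count test could not be rerun without single libraries, since counts per library were not analysed here. No paired analysis was possible because the labels give the mice no replicate numbers shared between groups. With 3 mice per group, small changes of low genes were not detectable.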
